A study of Sus scrofa with 15 samples.

Results

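A group of 10 transcription factors was followed in backfat of Iberian pigs: the peroxisome proliferator-activated receptors PPARA, PPARD and PPARG, their partner RXRA, the CCAAT/enhancer-binding proteins CEBPA, CEBPB and CEBPD, and KLF15, EBF1 and ZNF423. They were chosen by name as factors of adipocyte formation and of the PPAR family, and all 10 are among the 30477 genes counted and among the 14918 genes that passed the filter on low counts. Subcutaneous fat of the back was taken by biopsy from growing pigs of about a year of age, kept in 1 pen per diet. The control group (C, n = 5) ate a restricted standard compound feed, the dry olive pulp group (DOP, n = 5) a restricted feed made with olive pulp, and the wet crude olive cake group (WCOC, n = 5) a restricted feed beside olive cake silage offered freely. By the paper, the compound feeds of DOP and WCOC were held to a smaller share of free energy intake than that of C. Diet and feeding level therefore cannot be told apart. Each library is 1 pig, and the effect of a diet and that of its pen cannot be told apart. The biopsied pigs were selected mainly on the amount and quality of their RNA.

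PPARs bind DNA as dimers with RXR proteins and are switched on by fatty acids and their derivatives. In forming adipocytes, CEBPB and CEBPD act early and help to switch on PPARG and CEBPA, which then hold each other and the genes of lipid storage active. ZNF423 and EBF1 mark and commit precursor cells, KLF15 acts late in the same sequence and responds to glucocorticoids and fasting, and PPARA and PPARD are best known as activators of fatty acid oxidation.

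The levels are CPM, the counts of a gene relative to a common total of counts on genes, scaled between libraries by the trimmed mean of M-values (TMM). The libraries held 22373715 to 34745218 counts on genes, and each factor had between 804 (CEBPD) and 24158 (CEBPA) counts in a library. Differences are log2 fold changes (log2FC) from edgeR's quasi-likelihood test over all 15 libraries, with p-values adjusted over the 14918 genes. A gene counted as differentially expressed (a DEG, or called) when its adjusted p was below 0.05 and its log2FC was 0.58 or larger, in either direction. The adipocyte marker list (9 of 10 genes detected, CFD at 0 counts in all libraries) summed to 14646 to 20666 CPM in C, 17802 to 21918 in DOP and 15359 to 21046 in WCOC. The sequencing runs were not balanced over the diets. Flow cell B, as the run identifiers name it here, carried all 5 DOP libraries and 1 control (C pig 5). Flow cell A carried C pigs 1 to 4 and the 5 WCOC libraries, with WCOC pigs 4 and 5 on a lane apart from the rest. A difference of DOP from either group is therefore also a difference between flow cells, with C pig 5 as the only library that crosses them.

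Among the 10 factors, the pair CEBPB and CEBPD differed between diets. CEBPD was lower in WCOC than in DOP, CEBPB was higher in WCOC than in DOP with a log2FC just under the size limit, and the other 8 factors had no adjusted p under 0.05 in any comparison. In bulk fat, fewer cells of a type and less RNA per cell cannot be told apart. In DOP vs. C and in WCOC vs. C, 0 of the 10 factors were called. These counts follow the background closely: 7.77% of all genes tested were DEGs in WCOC vs. DOP (2.65% higher and 5.11% lower in WCOC), 0.764% in DOP vs. C and 6.26% in WCOC vs. C, so that 0 or 1 of 10 genes is what the share over all genes gives. By the adjusted p alone, with no limit on size, 2 factors passed in WCOC vs. DOP beside 12.3% of all genes, 0 in WCOC vs. C beside 10% and 0 in DOP vs. C beside 0.925%. Before adjustment, 3 factors had a p under 0.05 in DOP vs. C, 2 in WCOC vs. C and 3 in WCOC vs. DOP, and in that order DESeq2 called 0, 0 and 1 of them. The median log2FC over the 10 factors was -0.11, 0.00 and 0.10 in the same order, beside 0.01, 0.00 and 0.00 over all genes tested.

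**Figure D1:**
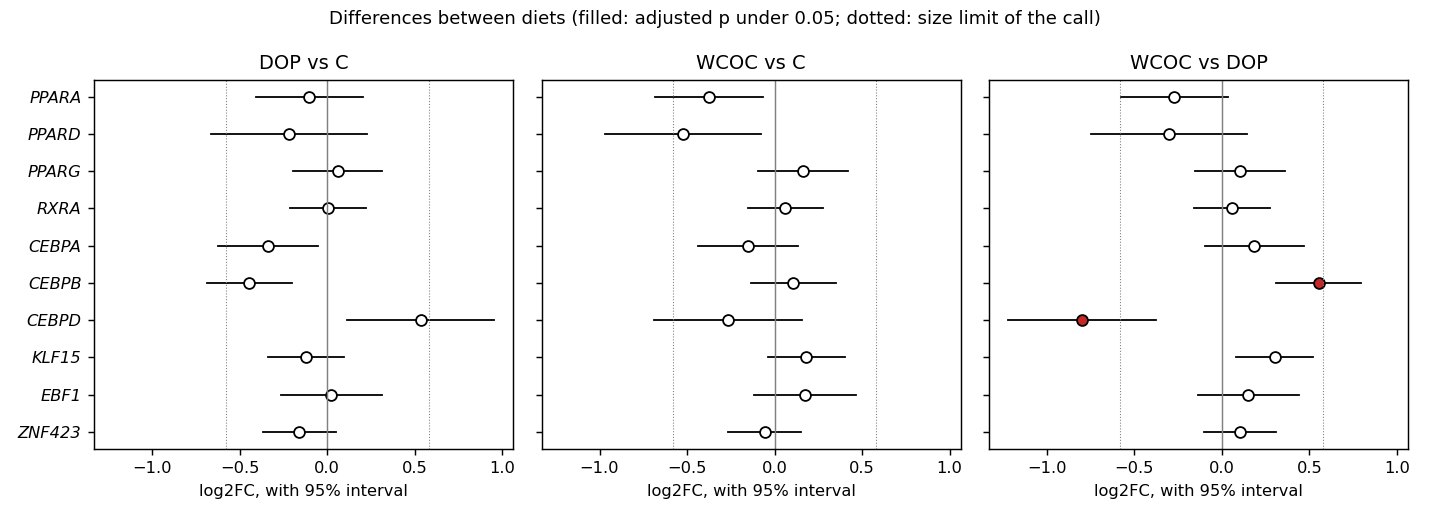
Differences between diets of the 10 transcription factors as log2FC (x axis) with 95% intervals, 1 panel per comparison. Filled points have an adjusted p under 0.05 and dotted lines stand at the size limit of 0.58, which only CEBPD in WCOC vs. DOP passed together with the p limit.

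CEBPD (ENSSSCG00000032367) is a gene of 1 exon on the plus strand at chr4:79872863-79874481 of Sscrofa11.1. Its protein is an early factor of adipogenesis and is known to respond to glucocorticoids and inflammatory signals. The 250 bases before its annotated start in RefSeq are shown because this was the factor called between the olive diets, and the same stretch of CEBPA, the later C/EBP factor that was not called, is given for comparison. Capitals mark matches to the GC box (GGGCGG on either strand), the letters read by SP1-type factors. The CEBPD stretch is chr4:79872613-79872862 (plus strand) and the CEBPA stretch chr6:43085885-43086134 (minus strand), each printed 5′ to 3′ on the strand of the gene.
CEBPD: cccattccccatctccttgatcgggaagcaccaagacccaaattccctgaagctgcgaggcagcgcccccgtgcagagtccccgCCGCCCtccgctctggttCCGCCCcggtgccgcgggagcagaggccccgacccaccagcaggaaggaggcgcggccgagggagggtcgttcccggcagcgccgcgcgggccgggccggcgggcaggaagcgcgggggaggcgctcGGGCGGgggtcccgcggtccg
CEBPA: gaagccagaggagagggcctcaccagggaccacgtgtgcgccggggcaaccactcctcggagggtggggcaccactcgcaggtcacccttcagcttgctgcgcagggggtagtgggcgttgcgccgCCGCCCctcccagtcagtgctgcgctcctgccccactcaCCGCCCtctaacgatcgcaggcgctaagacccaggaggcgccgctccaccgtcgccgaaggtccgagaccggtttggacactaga

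Of the bases shown, 76.0% are G or C for CEBPD and 68.8% for CEBPA. In windows reaching from 250 bases before to 50 after the start, a GC box was found in 5 of the 10 factors (PPARD, PPARG, CEBPA, CEBPD and KLF15) and in 50.6% of 19558 annotated promoters. The CCAAT box (CCAAT, both strands) was found in PPARA, PPARD, CEBPB, KLF15 and EBF1 and in 35.4% of all promoters, and TATAAA in CEBPA and CEBPB and in 10.9%. The glucocorticoid response element, a palindrome with a gap of any 3 bases, was in 0 of the 10 windows and in 0.312% of promoters. The C/EBP letters TTGCNNAA (9.46% of promoters), the PPAR element, a direct repeat of the receptor site with 1 base between (DR1, 0.271%), and the cyclic AMP element TGACGTCA (2.25%) also had 0 matches. The RefSeq models of CEBPB and PPARA begin at their coding start, so their windows may lie downstream of the true start of transcription. Only the outermost annotated start of each gene was read. PPARG has 8 annotated starts, RXRA 32, EBF1 10, KLF15 and ZNF423 4 each and PPARD 3, so the windows do not cover their other promoters.

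CEBPD stood at 53.4, 34.3, 38.6, 48.3 and 44.4 CPM in C pigs 1 to 5. In DOP the values were 63.3, 80.3, 71.4, 52.3 and 49.4 CPM. In WCOC they were 35.2, 57.95, 31.0, 28.6 and 29.4 CPM. The 4 WCOC pigs other than pig 2 lay below every DOP pig, and WCOC pig 2 lay among them, so the 2 diets overlapped through that 1 animal. The means were 43.8 ± 7.58 CPM in C, 63.4 ± 12.9 in DOP and 36.4 ± 12.3 in WCOC (SD, n = 5). In WCOC vs. DOP the log2FC was -0.80 (SE 0.198, 95% interval -1.22 to -0.38, adjusted p = 0.0207), a level in WCOC of 0.575 times that in DOP. In DOP vs. C it was 0.53 (SE 0.198, adjusted p = 0.184), with only the highest control above the lowest DOP pigs, and in WCOC vs. C it was -0.27 (SE 0.198, adjusted p = 0.414). C pig 5, the control read on the flow cell of DOP, stood at 44.4 CPM, below all 5 DOP pigs. The WCOC vs. DOP call of CEBPD was lost with flow cell as a covariate (log2FC -0.78, adjusted p = 0.418), without the lane of WCOC pigs 4 and 5 (-0.61, adjusted p = 0.135), without DOP pig 2 (-0.70, adjusted p = 0.0532), without WCOC pig 4 (-0.71, adjusted p = 0.0531) and with the muscle markers as a covariate (-0.85, adjusted p = 0.0503). It kept its sign in all 10 alternatives and all 10 fits that left out 1 pig, and without WCOC pig 2 it was -1.03 (adjusted p = 0.00262).

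CEBPB (ENSSSCG00000034207), the partner of CEBPD in the early phase of adipogenesis and a factor of many stress and hormone responses, is a gene of 1 exon on the plus strand at chr17:51722633-51723673. It stood at 354, 376, 340.2, 355 and 315 CPM in C pigs 1 to 5. In DOP the values were 247, 266, 232, 272 and 259.9 CPM. In WCOC they were 315, 333, 321, 469 and 434 CPM. Every DOP pig lay below every C and every WCOC pig, while C and WCOC overlapped. CEBPB was the only factor whose libraries did not overlap between DOP and C or between DOP and WCOC, where 3.47% and 8.9% of all genes were of this kind, and 0 factors were in WCOC vs. C beside 7.62% of all genes. The means were 348 ± 22.6 CPM in C, 255 ± 15.98 in DOP and 375 ± 71.7 in WCOC (SD, n = 5). The log2FC was 0.55 in WCOC vs. DOP (SE 0.114, 95% interval 0.31 to 0.80, adjusted p = 0.00924) and -0.45 in DOP vs. C (SE 0.114, interval -0.69 to -0.20, adjusted p = 0.0749). In WCOC vs. C it was 0.11 (SE 0.114, adjusted p = 0.586).

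The 2 highest CEBPB values were those of WCOC pigs 4 and 5, the pair read on a lane of its own. Without them the WCOC vs. DOP log2FC of CEBPB was 0.35 (adjusted p = 0.0469). With flow cell as a covariate it was 0.37 (adjusted p = 0.466), a fit in which C pig 5 alone ties the flow cells together. That control pig had the lowest CEBPB level of its group (315 CPM) and was still above the highest DOP pig (272 CPM). In the DOP vs. C comparison DESeq2 gave CEBPB an adjusted p of 0.00468 at a log2FC of -0.45, under the size limit.

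**Figure D2:**
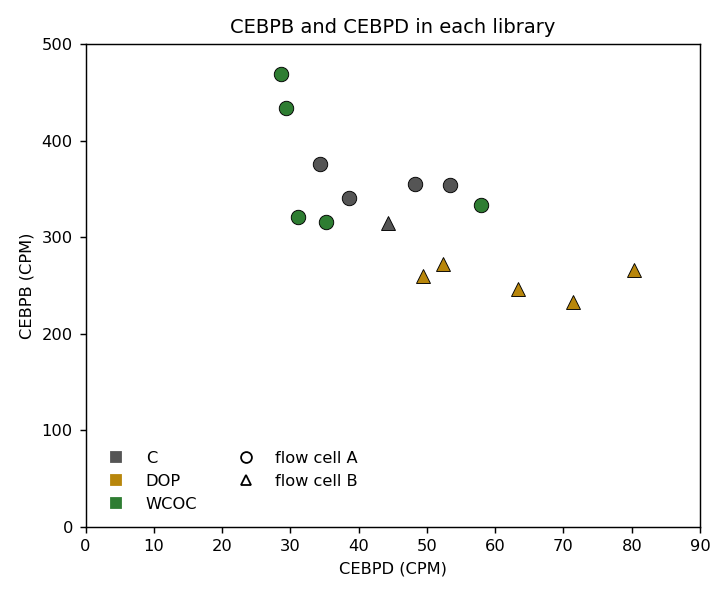
CEBPB level (y axis, CPM) against CEBPD level (x axis, CPM), 1 point per library, colour for diet and shape for flow cell. The 5 DOP libraries lie at 232 to 272 CPM of CEBPB and at 49.4 CPM of CEBPD or more, and the 4 WCOC libraries other than pig 2 at 35.2 CPM of CEBPD or less.

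Across the 15 libraries CEBPB and CEBPD ran in opposite directions, with a Pearson r of -0.77 on log2 CPM and of -0.43 after the mean of each diet was removed. Over all libraries this was the most negative of the 45 pairs of factors, while within diets CEBPB and EBF1 had r = -0.54. The most positive pair over all libraries was CEBPB and KLF15 (r = 0.69, within diets 0.49), followed by PPARG and EBF1 (0.63, within diets 0.58) and RXRA and CEBPA (0.62, within diets 0.79). CEBPD and RXRA had r = 0.44 over all libraries and 0.86 within diets. These are descriptions over libraries that share diet, pen and flow cell.

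CEBPA (ENSSSCG00000002866), which keeps mature adipocytes differentiated and insulin sensitive, lies on the minus strand at chr6:43083200-43085884 and has 1 exon. Its levels were 947, 658, 769, 887 and 642 CPM in C, 584, 611, 683, 636 and 579 CPM in DOP, and 709, 885, 599.7, 722 and 599 CPM in WCOC. The DOP pigs were low and close together (618 ± 42.5 CPM, SD, n = 5) and overlapped with both other diets, whose means were 781 ± 136 CPM in C and 703 ± 117 in WCOC. The log2FC was -0.34 in DOP vs. C (SE 0.134, adjusted p = 0.214), -0.15 in WCOC vs. C and 0.18 in WCOC vs. DOP. C pig 5 had the lowest control level, 642 CPM, within the range of DOP on the same flow cell, and with flow cell as a covariate the DOP vs. C log2FC of CEBPA was -0.05.

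Among the receptors, PPARG (ENSSSCG00000011579, chr13:68301566-68433951, plus strand), the receptor needed for adipocyte formation and the target of thiazolidinedione drugs, had similar levels on all 3 diets. It stood at 354, 357, 336, 393 and 295 CPM in C, at 352, 371, 374, 408 and 303 CPM in DOP, and at 464, 347, 379, 440.3 and 313 CPM in WCOC. The diets overlapped throughout. The log2FC was 0.06 in DOP vs. C (95% interval -0.20 to 0.31), 0.16 in WCOC vs. C (-0.09 to 0.42) and 0.10 in WCOC vs. DOP (-0.15 to 0.36), so that each interval of this fit lay inside the size limit of 0.58. With flow cell as a covariate the log2FC of PPARG was 0.29 in DOP vs. C (adjusted p = 0.620) and -0.18 in WCOC vs. DOP (adjusted p = 0.752), with its sign turned. Levels were also similar for RXRA (ENSSSCG00000038220, chr1:273698842-273797622, plus strand), the dimer partner of all 3 PPARs. Its libraries spanned 374 to 491 CPM in C, 383 to 459 in DOP and 386 to 522 in WCOC. The log2FC of RXRA was 0.00 (interval -0.21 to 0.22), 0.06 (-0.15 to 0.28) and 0.06 (-0.16 to 0.27) in the order used above, and with flow cell as a covariate it was 0.09 in DOP vs. C and -0.05 in WCOC vs. DOP.

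PPARD (ENSSSCG00000001539, chr7:31222533-31295221, plus strand), an activator of oxidative metabolism in many tissues, spanned 3.54 times from its lowest to its highest library. It stood at 355, 294, 299, 411 and 234 CPM in C, at 314, 298, 283, 262 and 212 CPM in DOP, and at 116, 251, 285, 203 and 254 CPM in WCOC. WCOC pig 1 was far below the rest and set this span, and all 3 diets overlapped. Over the 15 libraries the SD was 25.2% of the mean for PPARD and 32.8% for CEBPD. The means were 319 ± 67.2 CPM in C, 274 ± 39.7 in DOP and 222 ± 66.1 in WCOC (SD, n = 5). In WCOC vs. C the log2FC was -0.52 (SE 0.209, interval -0.97 to -0.08, adjusted p = 0.127), and -0.36 without WCOC pig 1 (adjusted p = 0.222). In DOP vs. C it was -0.22 and in WCOC vs. DOP -0.30, with adjusted p of 0.639 and 0.374. With flow cell as a covariate the DOP vs. C log2FC of PPARD was 0.23 (adjusted p = 0.845), with its sign turned, and that in WCOC vs. DOP was -0.84 (adjusted p = 0.379).

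PPARA (ENSSSCG00000000006, chr5:3302755-3321091, minus strand), the receptor of hepatic fatty acid oxidation and ketogenesis, stood at 104, 106, 88.0, 118 and 98.8 CPM in C, at 101, 127, 93.2, 72.1 and 85.8 CPM in DOP, and at 80.6, 75.8, 94.6, 59.6 and 86.4 CPM in WCOC. The control pigs lay above 4 of the 5 WCOC pigs, and DOP covered most of both ranges. The log2FC in WCOC vs. C was -0.37 (SE 0.144, interval -0.68 to -0.07, adjusted p = 0.115). It was -0.10 in DOP vs. C and -0.27 in WCOC vs. DOP, with adjusted p of 0.765 and 0.236. Within flow cell A alone the WCOC vs. C log2FC was -0.40 for PPARA and -0.63 for PPARD, with adjusted p of 0.112 and 0.133.

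KLF15 (ENSSSCG00000036742, chr7:53877813-53890558, minus strand) stood at 96.6, 99.4, 87.5, 113 and 90.2 CPM in C, at 96.2, 107, 87.5, 77.4 and 79.3 CPM in DOP, and at 99.0, 102, 106, 119 and 125 CPM in WCOC. Only DOP pig 2 reached into the range of WCOC. The log2FC in WCOC vs. DOP was 0.30 (SE 0.103, interval 0.08 to 0.52, adjusted p = 0.0672). The adjusted p of KLF15 was 0.0458 without DOP pig 2 and 0.0385 with DESeq2, both below the size limit. WCOC pigs 4 and 5, on their own lane, were the highest of all 15 libraries, and without them the log2FC was 0.20 (adjusted p = 0.319). In DOP vs. C KLF15 had a log2FC of -0.12, and in WCOC vs. C of 0.18.

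For the precursor factors the diets overlapped. EBF1 (ENSSSCG00000017046, chr16:64357999-64753188, plus strand) spanned 264 to 369 CPM in C, 277 to 373 in DOP and 291 to 450.3 in WCOC, with WCOC pigs 4 and 5 the lowest of their group. Its log2FC was 0.02, 0.17 and 0.15 in the 3 comparisons, and 89 of its exonic bases are shared with an antisense transcript (LOC106506547), whose reads cannot be told apart where strand was not used. ZNF423 (ENSSSCG00000002838, chr6:34929286-35299695, plus strand) spanned 92.7 to 107 CPM in C, 73.5 to 103 in DOP and 86.4 to 115 in WCOC. The log2FC of ZNF423 was -0.16 (interval -0.37 to 0.05), -0.06 (-0.26 to 0.15) and 0.10 (-0.10 to 0.31). Over the 10 alternatives the log2FC of EBF1 ran from 0.01 to 0.34 in DOP vs. C and from -0.24 to 0.34 in WCOC vs. DOP. That of ZNF423 in WCOC vs. DOP ran from -0.04 to 0.14. In WCOC vs. DOP the sign of each of these 2 factors turned in 1 alternative.

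**Figure D3:**
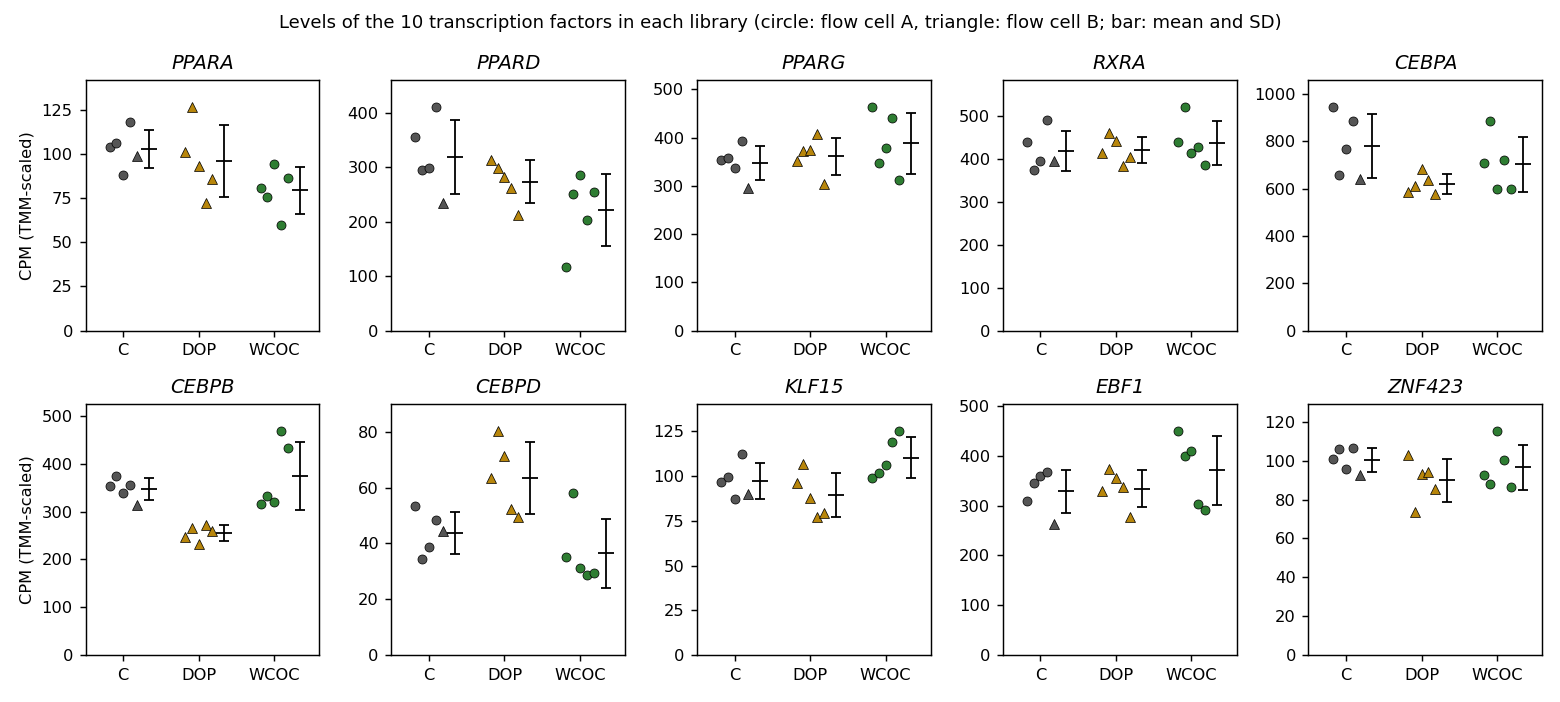
Level of each of the 10 factors (y axis, CPM) in every library by diet, with circles for flow cell A and triangles for flow cell B, and bars for mean and SD of 5 pigs. DOP stands apart from both other diets for CEBPB (232 to 272 CPM), and WCOC pig 1 is the lowest point of PPARD (116 CPM).

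Divided by the exon length of the RefSeq models, the order of mean levels was CEBPB (313 CPM per kb), CEBPA (261), PPARG (127), PPARA (66.0), PPARD (63.1), EBF1 (46.8), RXRA (42.2), CEBPD (29.6), KLF15 (19.3) and ZNF423 (17.4). The SDs over 15 libraries were 64.3, 44.7, 16.4, 12.5, 15.9, 7.02, 4.10, 9.68, 2.66 and 1.88 CPM per kb. PPARA and PPARD, EBF1 and RXRA, and KLF15 and ZNF423 differed by less than the larger of their SDs, and so did CEBPB and CEBPA, while the other neighbours in this order differed by more. The models of CEBPB and PPARA hold coding bases only, and that of RXRA joins 32 transcripts. The gene models behind the counts were not compared with these lengths, so the places of these 3 genes in the order are uncertain. The coding sequences of the 3 PPARs were 66.4% to 72.0% identical and those of the 3 C/EBP genes 69.1% to 71.9%. Their longest shared runs were 14 to 38 bases, shorter than 1 read.

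Of the other genes around the factors, 20 further activators of adipogenesis were tested. Over all genes tested, 0.764% were called in DOP vs. C, 6.26% in WCOC vs. C and 7.77% in WCOC vs. DOP. These shares are the background for the calls in this list and those below. BCL6, a transcriptional repressor that acts early in adipogenesis, was called in 2 comparisons. It stood at 63.1 ± 2.12 CPM in C, 95.5 ± 21.9 in DOP and 45.6 ± 3.83 in WCOC (SD, n = 5), a log2FC of 0.60 in DOP vs. C (adjusted p = 0.0452) and of -1.07 in WCOC vs. DOP (adjusted p = 0.000739). The DOP vs. C call of BCL6 held in 3 of 10 alternatives and in 1 of the 10 fits that left out 1 pig. Its WCOC vs. DOP call held in all of these but 1, the fit with flow cell as a covariate (adjusted p = 0.253). In WCOC vs. C 0 of the 20 activators were called, and the medians of the list were 0.18, 0.03 and -0.05. Of 14 inhibitors tested, KLF2, a repressor of PPARG, rose in WCOC vs. C (71.3 ± 18.97 to 115 ± 25.1 CPM, log2FC 0.69, adjusted p = 0.0470). This 1 call of 14 was near the share over all genes. In the other 2 comparisons 0 inhibitors were called, and the medians of the list were 0.05, 0.15 and -0.01. The KLF2 call held in 5 of 11 alternatives and in 3 of 10 fits without 1 pig, and was lost within flow cell A alone (log2FC 0.67, adjusted p = 0.0991).

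Of 16 PPAR coregulators, TLE3, a cofactor of PPARG in white adipocytes, fell in DOP vs. C, from 92.1 ± 4.13 to 59.7 ± 11.01 CPM (log2FC -0.63, adjusted p = 0.0411). The call of TLE3 held in 4 of 10 alternatives and 3 of 10 fits without 1 pig, and with flow cell as a covariate the log2FC was -0.69 (adjusted p = 0.200). In WCOC vs. DOP PRDM16, a coactivator of the brown and beige program, rose from 5.78 ± 1.64 to 10.99 ± 3.25 CPM (log2FC 0.93, adjusted p = 0.0333), and with flow cell as a covariate its log2FC was 0.88 (adjusted p = 0.456). PPARGC1A, the coactivator of mitochondrial genes, fell from 3.12 ± 3.88 to 0.636 ± 0.190 CPM in the same comparison (log2FC -2.30, adjusted p = 0.0438). It is also abundant in muscle, and the summed muscle markers of DOP ran from 36.6 to 52170 CPM. With the muscle markers as a covariate the log2FC of PPARGC1A was -0.17 (adjusted p = 0.925), and with flow cell as a covariate -3.17 (adjusted p = 0.392). The call of PRDM16 held in 5 of 10 alternatives and that of PPARGC1A in 2 of 9, and 4 and 2 of 10 fits without 1 pig kept them. In WCOC vs. C 0 coregulators were called, and the medians of the list were 0.05, 0.05 and 0.06. The 1 call of 16 in DOP vs. C stood beside 0.764% of all genes, and the 2 in WCOC vs. DOP beside 7.77%.

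The targets of the PPARs were read as 2 lists. Of 24 known PPARG targets of adipocytes tested (of 30 listed), 0 were called in DOP vs. C (median log2FC 0.13). In WCOC vs. C, where 6.26% of all genes were called, 2 rose and 2 fell (median -0.09). PCK1, the enzyme of glyceroneogenesis, rose from 63.4 ± 12.8 to 268 ± 123 CPM (log2FC 2.08, adjusted p = 0.00568) and the adipokine ADIPOQ from 3691 ± 549 to 5849 ± 1353 CPM (0.66, adjusted p = 0.0281). PLIN2, a coat protein of lipid droplets, fell by 0.95 and ACSL1, which activates fatty acids, by 0.87 on the log2 scale. ADIPOQ was also high in DOP (5493 ± 919 CPM), with a log2FC of 0.57 in DOP vs. C (adjusted p = 0.126), just under the size limit. Between WCOC and DOP the log2FC of ADIPOQ was 0.09 (adjusted p = 0.782). The paper, using DESeq2, reports ADIPOQ as raised on both olive diets. In WCOC vs. DOP the lipase inhibitor G0S2 (log2FC 1.40) and the droplet protein PLIN4 (0.70) rose, and ACSL1 (-1.26) and the insulin-responsive glucose transporter SLC2A4 (-0.67) fell. The list median was -0.30, and 7.77% of all genes were called. With flow cell as a covariate 0 of the 24 were called in WCOC vs. DOP, where G0S2 had a log2FC of 0.53 (adjusted p = 0.787), PLIN4 of 0.39 (adjusted p = 0.635), ACSL1 of -1.70 (adjusted p = 0.293) and SLC2A4 of -1.36 (adjusted p = 0.264). Of these 4 calls, that of ACSL1 held in the 9 other alternatives and in all 10 fits without 1 pig. Those of G0S2, PLIN4 and SLC2A4 were also lost with the muscle covariate, with replicate number as a block and without the lane of WCOC pigs 4 and 5. The calls of G0S2 and PLIN4 held in 6 of 10 alternatives each and that of SLC2A4 in 5. Fits without 1 pig kept G0S2 in 4 of 10, PLIN4 in 5 and SLC2A4 in 2. In WCOC vs. C the call of PCK1 held in all 11 alternatives, that of PLIN2 in 10, that of ADIPOQ in 8 and that of ACSL1 in 5. Within flow cell A alone the calls of ADIPOQ (log2FC 0.69, adjusted p = 0.0795) and ACSL1 (-0.96, adjusted p = 0.0965) were lost. Of the 10 fits without 1 pig, all 10 kept PCK1 and PLIN2, 6 kept ADIPOQ and 2 kept ACSL1.

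The list of PPARA and PPARD targets, which are enzymes and carriers of fatty acid oxidation for the most part, was more one-sided. Of 18 genes tested (of 22 listed), 17 had a log2FC below 0 in WCOC vs. DOP, with a median of -0.58. Of the 18, 7 were called lower, beside 5.11% of all genes tested. The smallest p was that of HADHB, a subunit of the mitochondrial trifunctional protein (217 ± 29.2 CPM in DOP and 134 ± 19.1 in WCOC, log2FC -0.69, adjusted p = 0.00280). ACADM, the medium-chain acyl-CoA dehydrogenase, and FABP3, a fatty acid carrier, fell by 0.59 and 1.36 on the log2 scale. In DOP vs. C all 18 lay above 0 (median 0.28), with 0 called by edgeR and 2 by DESeq2, and in WCOC vs. C 13 lay below 0 (median -0.17) and FABP3 was called (-1.20, adjusted p = 0.0219). The 7 calls became 0 with flow cell as a covariate, 5 with muscle markers as a covariate, 4 without WCOC pig 4 and 1 without the lane of WCOC pigs 4 and 5, while the median was between -0.43 and -0.55 in those fits. FABP3 and several of these enzymes are abundant in muscle, whose part in the result was not tested beyond that covariate.

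**Figure D4:**
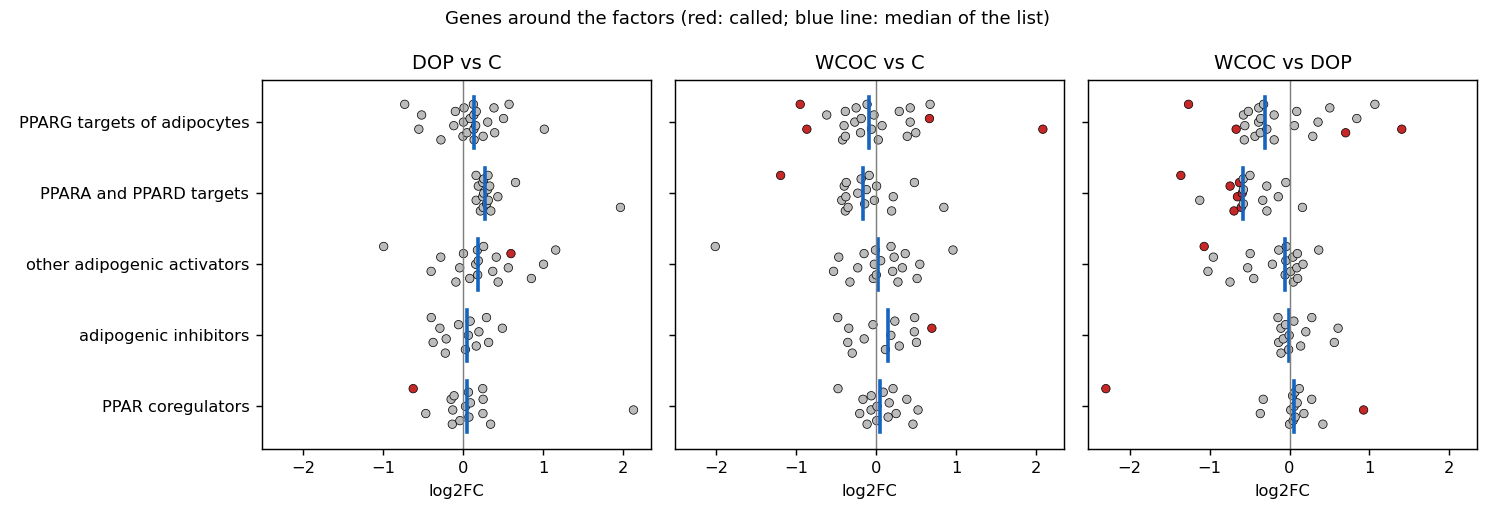
Log2FC (x axis) of the genes of 5 lists around the factors, 1 point per gene tested and 1 panel per comparison, red for called genes, with the median of each list as a line. The PPARA and PPARD targets lie above 0 in DOP vs. C (median 0.28) and mostly below it in WCOC vs. DOP (median -0.58).

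The relation of each factor to the mean log2 CPM of the 24 PPARG targets was tested over the 15 libraries after the mean of each diet was removed, by 100000 permutations within diets (two-sided, 10 factors tested). No factor passed. PPARG had r = 0.05 (permutation p = 0.892, adjusted p = 0.90) and a Spearman rho of 0.03 (permutation p = 0.939, adjusted p = 0.939). The highest r was that of CEBPD, 0.50 (permutation p = 0.102, adjusted p = 0.375), with a rho of 0.51 (permutation p = 0.0734, adjusted p = 0.363), and 0.51 without the 2 libraries farthest from the median. PPARD had the lowest p of the rank test (rho 0.59, permutation p = 0.0316, adjusted p = 0.316) and a Pearson r of 0.37 (permutation p = 0.247, adjusted p = 0.410).

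Since CEBPD and KLF15 respond to glucocorticoids, 9 genes induced by these hormones were read beside them. They summed to 495 to 636 CPM in C, 682 to 1204 in DOP and 369 to 607 in WCOC, with DOP above both other diets in every pig. In WCOC vs. DOP 4 of the 9 fell, led by FKBP5 (107 ± 30.3 to 54.3 ± 6.68 CPM, log2FC -0.98, adjusted p = 0.00413) and PER1 (189 ± 26.6 to 110 ± 29.7 CPM, -0.77, adjusted p = 0.0101), followed by ZBTB16 (-0.98) and ANGPTL4 (-0.65), which is also on the list of PPARA and PPARD targets, with a median of -0.77. These 4 calls became 0 with flow cell as a covariate and 2 without the lane of WCOC pigs 4 and 5. Over all genes tested, 5.11% were called lower in WCOC vs. DOP. With the muscle markers as a covariate the calls of ZBTB16 and ANGPTL4 (log2FC -0.57, adjusted p = 0.121) were lost, and those of FKBP5 and PER1 held. DOP pigs 2 and 5, which had the highest sums of the glucocorticoid-induced genes, also had the highest muscle sums (11072 and 52170 CPM). DOP pig 4, with a muscle sum of 6841 CPM, had a glucocorticoid-induced sum of 743 CPM, below the 847 CPM of DOP pig 3 (muscle 254 CPM). DOP pig 1 (muscle 36.6 CPM) had 682 CPM, above the 523 CPM of C pig 3 (muscle 4198 CPM). The relation of the 2 sums was not tested. In DOP vs. C 0 of the 9 were called by edgeR and 3 by DESeq2 (median 0.52), and in WCOC vs. C SGK1 was (-0.76; median -0.15). The mean of KLF15 was lower in DOP (89.5 ± 12.3 CPM) than in WCOC (110.2 ± 11.4 CPM). DOP pig 2, which had the highest CEBPD level, also had the highest sum of these genes (1204 CPM) and of the immediate early genes (1885 CPM, where the other 14 libraries had 112 to 277 CPM). The 10 immediate early genes tested gave 0 calls in DOP vs. C and in WCOC vs. DOP and 1 in WCOC vs. C (ATF3, -2.48), with medians of 0.80, -0.94 and 0.00. The SGK1 and ATF3 calls in WCOC vs. C each held in 6 of 11 alternatives and in 4 of 10 fits without 1 pig. Both were lost within flow cell A alone and with flow cell as a covariate. Whether the CEBPD difference and the sums of the glucocorticoid-induced and immediate early genes are linked was not tested.

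The genes most like each factor over the 15 libraries were sought among 11132 genes with a symbol and a mean of at least 1 CPM, by Pearson's r of log2 CPM, as a description. The closest likeness was that of CEBPA with MED10 (r = 0.94), a subunit of the Mediator complex, and MUL1 (0.90) was also among its closest genes. PPARD was most like ANGPTL8 (0.93), an insulin-induced inhibitor of lipoprotein lipase, HK2 (0.93), a hexokinase of insulin-responsive tissues, and ACLY (0.92), which makes the acetyl-CoA for fatty acid synthesis. WCOC pig 1 was the lowest library for all 4, and without it r was 0.86, 0.88 and 0.82. ACLY stood at 871 CPM in WCOC pig 1 and at 1916 to 3613 in the other WCOC pigs, and at 3284 to 8080 CPM in C. In WCOC vs. C ACLY (log2FC -1.19, adjusted p = 0.0302) and HK2 (-0.63, adjusted p = 0.0478) were called, and in WCOC vs. DOP ACLY was (-1.09, adjusted p = 0.0380). Within flow cell A alone neither ACLY (-1.33, adjusted p = 0.0635) nor HK2 (-0.71, adjusted p = 0.0702) was called in WCOC vs. C, and ACLY was not in WCOC vs. DOP with flow cell as a covariate (-1.90, adjusted p = 0.311). ANGPTL8, with 4.67 CPM at most and 0 in WCOC pig 1, was called in WCOC vs. C (log2FC -2.71, adjusted p = 0.0302). The WCOC vs. C call of ACLY held in 7 of 11 alternatives, that of HK2 in 6 of 11 and that of ANGPTL8 in 8 of 10. Of the 10 fits without 1 pig, 7 kept ACLY, 2 kept HK2 and 5 kept ANGPTL8. The WCOC vs. DOP call of ACLY held in 5 of 10 alternatives and in 2 of 10 fits without 1 pig.

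**Figure D5:**
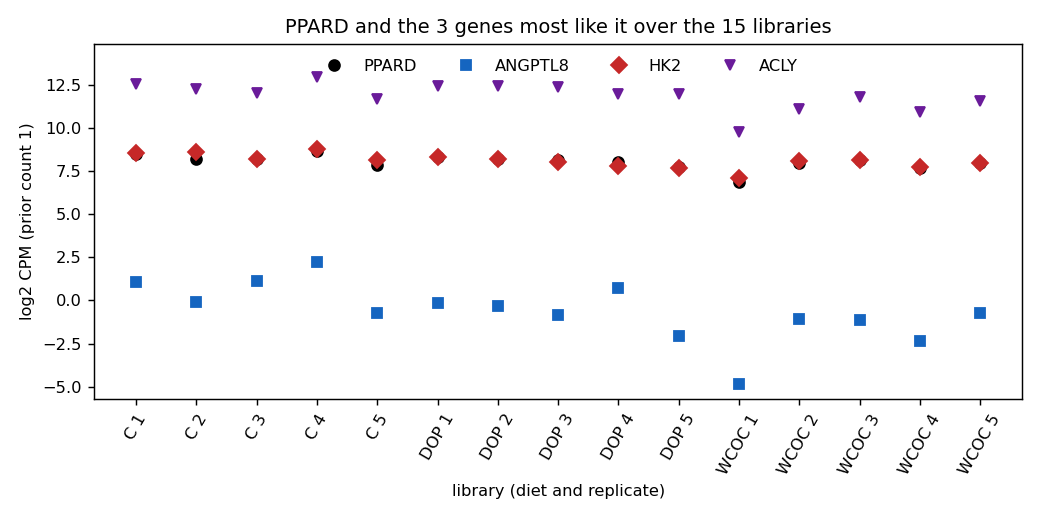
Log2 CPM (y axis, prior count 1) of PPARD and of the 3 genes most like it in each of the 15 libraries (x axis, by diet). All 4 are lowest in WCOC pig 1, where ANGPTL8 had 0 counts.

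For the others the 3 closest genes were AIFM3, DLG1 and COX15 for PPARA (r = 0.84 to 0.82), C12orf75, FUCA2 and GLIS1 for PPARG (0.80 to 0.78) and BAP1, QDPR and APOE for RXRA (0.86 to 0.84). CEBPB was most like JPH4, MBD4 and NOP58 (0.83 to 0.81), and CEBPD most like CYP2U1, BLVRB and GPAT4 (0.86 to 0.85). Of these 6, MBD4 (log2FC 0.37), NOP58 (0.26) and CYP2U1 (-0.43) had an adjusted p under 0.05 below the size limit in WCOC vs. DOP, and JPH4 (0.64) and BLVRB (-0.59) were called. Both calls were lost with flow cell as a covariate (adjusted p = 0.349 and 0.350). The call of JPH4 held in 3 of 10 alternatives and that of BLVRB in 4 of 10. Of the 10 fits without 1 pig, 4 kept JPH4 and 3 kept BLVRB. KLF15 was most like TERF2IP, MICAL3 and FBXL5 (0.87 to 0.81), EBF1 like PDE3A, ZNF609 and RSF1 (0.89 to 0.84), and ZNF423 like HOXC5, STARD5 and C1QTNF7 (0.85 to 0.78).

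Markers of other cells differed between libraries. The muscle list (7 of 13 genes matched) summed to 48.6 to 4198 CPM in C, 36.6 to 52170 in DOP and 19 to 785 in WCOC, with 0, 0 and 3 genes called in the 3 comparisons, the 3 lower in WCOC than in DOP. Macrophage markers summed to 245 to 735 CPM in C, 159 to 401 in DOP and 119 to 306 in WCOC, with 1, 5 and 1 of 10 called, all lower. Adipose progenitor markers summed to 19894 to 29236, 17744 to 27295 and 13604 to 22410 CPM, with 0, 2 and 2 of 9 called lower, and endothelial markers to 864 to 1083, 1113 to 1466 and 939 to 1533 CPM, with 1 of 6 called higher in WCOC vs. C. Adipocyte markers gave 0, 2 and 1 calls of 9, all higher. Epidermis markers stayed at 137 CPM or less with 2 of 5 called higher in WCOC vs. DOP, and T cell (42.7 to 81.9 CPM) and B cell markers (13.5 CPM or less) gave 0 calls. The part of these cells in the CEBPB, CEBPD and target gene differences was not tested beyond the muscle covariate.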

How the data were processed

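RNA-seq of backfat was deposited as 15 tables of raw counts per Ensembl gene, 1 per pig. The authors aligned read pairs to Sscrofa11.1 with HISAT2, set as strand-specific, and counted with HTSeq; which strand option and which annotation release the counting used is not given in the sources used here. The 5 summary lines of each table (23.4% to 32.8% of read pairs) were left out. Groups and replicate numbers came from the labels, flow cell and lane from run identifiers of the deposited tables.

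The tests used edgeR 4.0.16 in R 4.3.3 (filterByExpr by diet, TMM, quasi-likelihood fit over all 15 libraries, common dispersion 0.0814, two-sided, Benjamini-Hochberg adjustment). CPM, log2 CPM (prior count 1) and percentages were computed from the deposited counts. SEs come from the unshrunk log2FC and F. The 95% intervals are for the difference between diet means, with the spread between pigs as the source of error. The study's own tool, DESeq2 1.42.0, was an alternative, as were limma-voom (limma 3.58.1), DESeq2 size factors, a filter of 10 counts in every library or none, fits on 2 diets or flow cell A alone, replicate number as a block, flow cell or muscle markers as covariates, no size limit, and each library left out. On simulated WCOC vs. C data of 14807 genes, 61 of 100 genes changed by log2 1 and 98 of 100 changed by log2 2 were called, with 13 unchanged ones. The simulated data held no differences of flow cell, lane, pen or muscle content, so these shares need not hold for the real libraries.

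The 10 factors and all gene lists were chosen with earlier results of these data known. All 10 factors are named. Called members of the other lists are named, at most 4 per list and comparison by smallest p, and for each factor the 3 genes with the highest r, except a few genes that are not reported here. In the marker lists only counts are given. Gene positions, exon lengths and sequences are those of RefSeq on Sscrofa11.1. Tables and figures used Python 3.11.15, pandas 2.3.3, scipy 1.17.1 and matplotlib 3.10.9.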

Additional observations from a re-analysis of the deposited data

Results flagged for a closer look

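The CEBPD level of WCOC replicate 2, 57.95 CPM, lay far from the other 4 pigs of its diet, the nearest of which had 35.18 CPM; this gap took 0.775 of the range of the group. The 30 groups of 5 libraries (10 factors in 3 diets) were examined in this way, and chance alone marks about 1 in 20. Without this pig the log2FC of CEBPD was -1.03 in WCOC vs. DOP (adjusted p = 0.00262) and -0.50 in WCOC vs. C (adjusted p = 0.0486, edgeR), where it was -0.80 and -0.27 with it.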

How the results depend on the processing

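The number of factors called stayed at 0 in DOP vs. C and WCOC vs. C under every alternative run. In WCOC vs. DOP it was 1, but 0 with flow cell as a covariate or without lane 8 of flow cell A (chosen after seeing the data), 2 with no size limit, and 0 to 2 when 1 library was left out. Over all genes, the 114 DEGs of DOP vs. C became 495 with DESeq2, 19 with limma-voom, 2 on only the 2 diets, 48 with muscle markers as a covariate and 0 without lane 8, and ran from 0 to 200 when 1 library was left out (0 without C pig 3 or 5 or DOP pig 2 or 4). The 934 of WCOC vs. C became 486 on flow cell A, 387 without lane 8 and 1493 with no size limit, and ran from 468 to 1164. The 1159 of WCOC vs. DOP became 1 with flow cell as a covariate, 476 with muscle markers, 356 without lane 8 and 1842 with no size limit, and ran from 640 to 1292. With the replicate number as a block the counts were 0, 473 and 561, and 0, 0 and 1 factors were called; the numbers do not pair the pigs (correlations of the deviations from -0.50 to 0.34). CEBPB passed both limits in WCOC vs. DOP with muscle markers (log2FC 0.62) and without WCOC pig 1, 2 or 3 (0.59 to 0.61). With the 2 farthest libraries left out, the relation to the PPARG targets moved for 5 of 10 factors, and without centring for CEBPA. The cause of these changes was not tested. At 804 counts or more per library, depth limits the factors less than the spread between 5 pigs.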
